A study of Mus musculus with 71 samples.

Results

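The variable region of an antibody heavy chain begins with a V segment, 1 of many short genes (Ighv) that lie side by side in the immunoglobulin heavy-chain (Igh) locus on mouse chromosome 12. All rows of the expression tables whose name is an Ighv segment were taken, genes and pseudogenes alike, with no use of their values. They are 181 of 25579 rows, 113 annotated as V genes and 68 as V pseudogenes, in 16 families, read by mRNA sequencing in 31 of the 71 samples of the series. The 17 expression tables of the other lymphoid cell types held 0 rows naming an Ighv segment.

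In pro-B cells, the earliest cells committed to the B lineage, the RAG recombinase first joins a D to a J segment and then a V segment to the DJ unit. The V segments stretch over a long array, and the distal ones, led by the large Ighv1 (VHJ558) family, must be brought to the DJ end by folding of the locus, a step known to need the transcription factor Pax5. V segments are transcribed from their own promoters both before joining (germline transcripts) and after it, and a V row counts both kinds of transcript.

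The study asked which parts of the Pax5 protein are needed in early B cell development. All mice were C57BL/6, and the cells were sorted from bone marrow and not cultured. Pro-B cells carried Pax5(+/+) in 5 samples, and in 2 samples each the deletion of the octapeptide, Pax5(DOP/DOP), of the partial homeodomain, Pax5(DHD/DHD), or of both, Pax5(DOP,HD/DOP,HD). The C-terminal regulatory domains CRD1 and CRD2 were deleted singly or together, either opposite a Pax5 null allele, in Pax5(DCRD2/-), Pax5(DCRD1/-) and Pax5(DCRD1,2/-), or on both alleles, in Pax5(DCRD2/DCRD2), Pax5(DCRD1/DCRD1) and Pax5(DCRD1,2/DCRD1,2), with 2 samples each. The octapeptide was removed by embryonic stem cell targeting, and the homeodomain and C-terminal deletions by CRISPR/Cas9 in zygotes. In Vav-Cre Pax5(fl/fl) mice, Vav-Cre, which is active from the haematopoietic stem cell onward, deleted Pax5 in all blood lineages, and 2 samples of progenitors were taken. A separate experiment held 2 samples each of Vav-Cre Pax5(fl/+) pro-B cells, Vav-Cre Pax5(Prd/fl) progenitors, whose only Pax5 protein is the DNA-binding paired domain, and Vav-Cre Pax5(fl/fl) progenitors, both progenitor groups being labelled as an alternative gating. Pro-B cells were sorted through a pro-B cell gate of B220+ Kit+ cells without CD2 or CD25, IgM and IgD. Through a different gate, Pax5(DCRD1,2/-) cells and the Vav-Cre Pax5(fl/fl) progenitors were taken as lineage-negative Ly6D+ Kit high B220+ cells, so genotype and gate cannot be told apart there. The gate of the Pax5(DCRD1,2/DCRD1,2) samples is not given in the sources used here. The labels give no ages for these samples and do not say whether replicates were separate animals, so the p-values measure the spread between samples.

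The results turn on 4 segments of the array, and their upstream DNA and recombination signals are shown because transcription starts in the former and RAG cuts at the latter. Sequences are from the GRCm38 genome, minus strand, 5′ to 3′. The first set is the 200 bases before the annotated start of each segment, with the octamer ATGCAAAT, the motif bound by Oct factors in V promoters, in capitals. Ighv5-2 is a proximal V gene at chr12:113578504-113578990, and its window is chr12:113578991-113579190. Ighv14-2 lies at chr12:113994469-113994898 with its window at chr12:113994899-113995098. Ighv10-3, also in the middle of the array, lies at chr12:114523441-114523905 with its window at chr12:114523906-114524105. Ighv1-85, the V gene farthest from the J segments, lies at chr12:116000028-116000461 with its window at chr12:116000462-116000661. The octamer begins 131, 105, 103 and 107 bases before the annotated start in Ighv5-2, Ighv14-2, Ighv10-3 and Ighv1-85.
Ighv5-2: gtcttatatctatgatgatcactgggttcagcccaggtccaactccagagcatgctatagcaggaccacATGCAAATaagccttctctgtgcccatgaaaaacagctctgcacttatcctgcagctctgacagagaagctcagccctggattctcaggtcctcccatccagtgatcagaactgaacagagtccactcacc
Ighv14-2: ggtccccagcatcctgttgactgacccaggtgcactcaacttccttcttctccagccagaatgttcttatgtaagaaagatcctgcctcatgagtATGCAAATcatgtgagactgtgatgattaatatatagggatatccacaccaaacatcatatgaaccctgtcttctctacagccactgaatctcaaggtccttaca
Ighv10-3: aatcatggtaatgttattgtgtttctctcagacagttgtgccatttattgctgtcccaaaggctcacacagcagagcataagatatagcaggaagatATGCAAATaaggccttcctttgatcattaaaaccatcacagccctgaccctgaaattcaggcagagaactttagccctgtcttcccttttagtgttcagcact
Ighv1-85: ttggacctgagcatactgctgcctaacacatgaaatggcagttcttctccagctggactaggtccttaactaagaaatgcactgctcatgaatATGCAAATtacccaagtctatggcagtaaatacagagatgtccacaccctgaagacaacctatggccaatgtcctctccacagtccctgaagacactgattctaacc

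The octamer, on either strand, was in the windows of 122 of the 181 segments (67.4%), against 1.09% of the 643 windows of the same length before protein-coding genes of chromosome 12. By region it was in 85.5% of the distal, 84.4% of the middle and 52.6% of the proximal V genes, and in 47.1% of all V pseudogenes. A match describes the letters only and does not show a bound site. The second set is the recombination signal just after each segment. The heptamer and the bases at the nonamer place are in capitals, around a spacer fixed at 23 bases. The coordinates of the 4 signals are chr12:113578465-113578503, chr12:113994430-113994468, chr12:114523402-114523440 and chr12:115999989-116000027.
Ighv5-2 signal: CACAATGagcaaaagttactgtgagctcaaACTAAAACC
Ighv14-2 signal: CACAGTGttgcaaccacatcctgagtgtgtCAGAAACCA
Ighv10-3 signal: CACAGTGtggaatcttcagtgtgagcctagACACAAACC
Ighv1-85 signal: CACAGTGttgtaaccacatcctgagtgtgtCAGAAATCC

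The heptamer CACAGTG was exact in 108 of the 181 segments (59.7%) and in 72.6% of the V genes. It is exact in Ighv14-2, Ighv10-3 and Ighv1-85 and has 1 other base in Ighv5-2. Against the nonamer ACAAAAACC at that fixed spacer, Ighv5-2 and Ighv10-3 matched at 8 of 9 positions, Ighv1-85 at 5 and Ighv14-2 at 4. No other spacer was read. Taken 1 base nearer the heptamer, the bases of Ighv14-2 and Ighv1-85 match the nonamer better, so their low counts do not show a weak signal.

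Values are given in TPM, a level scaled by gene length and library size. Each sample held between 10018678 and 43784791 reads, of which 1187 to 6799 were Ighv reads, so a segment at 1 TPM rests on few reads. Many V segments are near copies of each other: in the distal V genes a median of 69.9% of 50-base stretches occur once in the locus, and 16 segments fall under 50%, so the split of reads between such neighbours is uncertain. The libraries of Vav-Cre Pax5(fl/fl), Pax5(DCRD1/DCRD1) and wild-type replicates 1, 2 and 5 were read at 50 bases and all others at 100, and read length is a term of the model over the C-terminal deletions. The Pax5 row checks no deletion, since its counted region extends beyond the deleted part: it lay at 342 to 524 TPM in wild type, 241 to 798 TPM in the domain mutants and 1609 and 1697 TPM in Vav-Cre Pax5(fl/fl).

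Wild-type pro-B cells transcribed most of the V array, with no single segment in command. Distances are measured to Ighj1, the J segment nearest the V array. The array was split by the usual families into proximal (Ighv2 and Ighv5, 31 segments, 143.1 to 890.2 kb), middle (43 segments, 173.6 to 1134.7 kb) and distal (Ighv1 and Ighv8, 107 segments, 903.0 to 2579.8 kb). The summed level of all Ighv rows was 1482, 908, 913, 1118 and 904 TPM in replicates 1 to 5, a mean of 1065 ± 250.3 TPM (SD, n = 5). Replicate 1 stood above the others, while the regional shares varied less: distal segments held 49.5%, 43.3%, 49.7%, 48.3% and 46.3%. Proximal segments held 16.6% to 22.9% and middle segments 29.7% to 35.5%. Between 97 and 117 segments were above 1 TPM per library, and 81 segments, genes and pseudogenes together, were above 1 TPM in all 5. Over the 31 samples, 143 segments passed 1 TPM at least once (106 genes and 37 pseudogenes), 3 passed 100 TPM, and 8 were at 0 throughout.

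**Figure D1:**
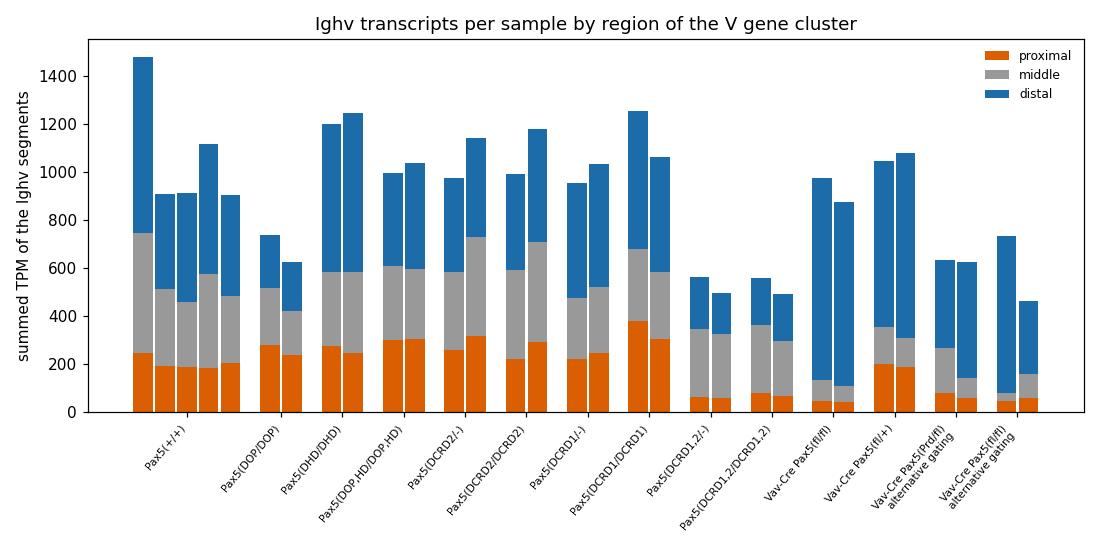
Summed TPM of the Ighv segments in each of the 31 samples, stacked by region (proximal, middle, distal), 1 bar per sample. Distal segments made up 43.3% to 49.7% of the wild-type bars 86.3% and 87.5% of the Vav-Cre Pax5(fl/fl) bars, and 89.2% and 65.4% of the Vav-Cre Pax5(fl/fl) bars of the alternative gating. The CRD1,2 deletion bars, at 493 to 565 TPM, are below every wild-type bar.

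By family, Ighv1 led in wild type with 455 ± 125 TPM (SD, n = 5) over its 91 segments, followed by Ighv14 with 134 TPM and Ighv5 with 119 ± 24.7 TPM. The leading single segment was Ighv14-2 in all 5 libraries, at 76.6, 59.0, 116.8, 103.2 and 93.3 TPM. It is a middle V gene 565 kb from Ighj1, and it alone held 5.17% to 12.8% of the Ighv signal. Ighv5-2, the V gene nearest the J segments, was at 45.6, 25.0, 51.3, 60.2 and 53.2 TPM. Its neighbour Ighv2-2 was at 25.4, 31.6, 19.2, 17.9 and 29.5 TPM, and Ighv5-4 at 16.6, 11.9, 10.2, 10.7 and 11.5 TPM. At the far end, Ighv1-82 was at 23.2, 11.2, 19, 23.6 and 22 TPM, whereas the last 2 V genes were low: Ighv1-84 was at 0 to 3.90 TPM and Ighv1-85 at 1.15 to 7.40 TPM. The highest members of the other families were Ighv1-23 (24.4 to 39.9 TPM), Ighv3-6 (5.52 to 40.8 TPM), Ighv9-3 (14.0 to 33.4 TPM), Ighv8-8 (10.04 to 31.8 TPM), Ighv6-3 (8.37 to 22.3 TPM), Ighv10-1 (5.16 to 30.9 TPM), Ighv13-2 (9.34 to 23.8 TPM), Ighv7-3 (9.13 to 27.0 TPM), Ighv12-3 (10.8 to 19.1 TPM), Ighv4-1 (6.03 to 10 TPM), Ighv15-2 (1.80 to 7.48 TPM) and Ighv11-2 (1.87 to 9.56 TPM). The single Ighv16 gene, Ighv16-1, was at 0 in all wild-type libraries.

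A call needed a change of more than 3-fold (2-fold in the paired-domain experiment), a mean above 5 TPM in either group and an adjusted p under 0.05. The study read homozygous CRD1,2 against CRD1 deletion at a lower fold than the one used here. Adjusted p-values are from limma on log2(TPM + 0.1), two-sided, with Benjamini-Hochberg adjustment across the whole table of tested genes. A fold change of a low segment is understated on this scale. Region and family sums are given as descriptions without a test. In these bulk samples, fewer cells that transcribe a V segment and less RNA per cell cannot be told apart.

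Loss of the octapeptide lowered 3 V segments and raised none. Both Pax5(DOP/DOP) samples held fewer V transcripts, 740 and 626 TPM in all, and both were below every wild-type library. Distal segments held 30.1% and 32.5%, below all wild-type libraries, and proximal segments 37.8% and 38.4%, above all of them. The family sums show where the loss lay: Ighv1 was at 191 and 211 TPM, against 329 to 655 TPM in wild type, whereas Ighv5 was at 149 and 155 TPM, within the wild-type range of 89.0 to 156 TPM. The 3 of 127 tested segments called lower (0.0616% of all genes tested were called lower and 0.0769% higher) were Ighv5-16 (log2 fold change -3.72 ± 0.59 SE, adjusted p = 0.04857), Ighv1-75 (-1.95 ± 0.25, adjusted p = 0.02781) and Ighv1-63 (-1.81 ± 0.22, adjusted p = 0.02661), by limma. Ighv1-75 was at 4.08 and 4.92 TPM in the mutant and 17.9 and 17.3 TPM in wild-type replicates 3 and 4, the 2 wild-type libraries of this model. Ighv1-63 was at 2.89 and 3.09 TPM against 10.3 and 11.2 TPM, and Ighv5-16 at 0.954 and 0.220 TPM against 5.09 and 11.3 TPM. None of the 3 overlapped with those libraries, though wild-type replicate 5, which is outside the model, was at 1.05 TPM for Ighv5-16. The median log2 fold change over the tested segments was -1.13 (-0.96 with groups at 0 set to their bound), against -0.03 over all genes. By region it was -1.44 for distal, -1.13 for middle and 0.38 for proximal segments. Leaving out any 1 of the 8 libraries of this model brought the count to 0, and edgeR on the recovered reads called 1.

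No V segment passed all thresholds by limma after loss of the homeodomain or of both central domains. The unadjusted p was under 0.05 for 17 and 26 of the 127 tested segments, edgeR called 0 in both, and the shares of all genes called higher and lower were 0.0539% and 0.131% for the homeodomain and 0.108% and 0.146% for both domains. The Pax5(DHD/DHD) samples held 1202 and 1247 TPM, 51.3% and 53.2% of it distal. These shares lie just above the wild-type range, and the Ighv1 sum, 590 and 614 TPM, lies within it. The Pax5(DOP,HD/DOP,HD) samples held 998 and 1040 TPM, of which 38.7% and 42.8% was distal and 30.3% and 29.5% proximal. Their distal shares are below and their proximal shares above all wild-type libraries, as with the octapeptide deletion alone, but the Ighv1 sum of 357 and 393 TPM overlaps with wild type.

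Deleting CRD2 alone moved no V segment past the thresholds, with 1 or 2 mutant alleles. By limma, 0 of 139 tested segments were called in Pax5(DCRD2/-) (background 0.0866% higher and 0.123% lower) and 0 in Pax5(DCRD2/DCRD2) (0.0361% higher and 0.0% lower). The unadjusted p was under 0.05 for 14 segments in each, and edgeR called 0 in each. Without replicate 2 of Pax5(DCRD2/DCRD2), 6 segments were called in that group. The summed level, 976 to 1182 TPM in the 4 libraries, overlapped with wild type, and the distal share, 36.1% to 40.4%, lay below it. Ighv14-2 reached 158 and 220 TPM in Pax5(DCRD2/-) and 146 and 142 TPM in Pax5(DCRD2/DCRD2), above the wild-type maximum of 117 TPM in all 4.

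Deleting CRD1 alone moved 10 V segments in the hemizygous cells and 1 in the homozygous cells. In Pax5(DCRD1/-), 7 of 139 segments fell (background 1.28%) and 3 rose (background 0.873%). The largest falls were Ighv1-12 (-4.47 ± 1.24, adjusted p = 0.03288), Ighv1-9 (-3.12 ± 0.52, adjusted p = 0.00133) and Ighv8-8 (-3.11 ± 0.67, adjusted p = 0.007669). Ighv1-9 was at 1.47 and 2.50 TPM against 12.2 to 27.2 TPM in wild type, with no overlap. The 3 that rose lie in the far part of the array, at 2163.3, 2372.8 and 2378.6 kb: Ighv1-66 (2.30 ± 0.56, adjusted p = 0.01668), Ighv1-74 (1.91 ± 0.50, adjusted p = 0.0244) and the pseudogene Ighv8-14 (5.62 ± 1.14, adjusted p = 0.005131). Ighv1-66 was at 36.9 and 38.2 TPM, above the wild-type range of 5.28 to 11.8 TPM. Ighv1-74 was at 52.4 and 47.2 TPM against 10.6 to 36.3 TPM, and Ighv8-14 at 3.30 and 6.96 TPM against 0 to 2.14 TPM. In Pax5(DCRD1/DCRD1) only Ighv1-75 was called higher (1.76 ± 0.40, adjusted p = 0.01354; background 0.484%), at 40.03 and 32.8 TPM against 5.65 to 17.9 TPM, and 0 of 139 lower by limma and by edgeR (background 0.693%). Of the 139 segments, 12 had an unadjusted p under 0.05 in that comparison. The count in Pax5(DCRD1/-) fell to 4, 3, 4 and 3 without wild-type replicate 3, wild-type replicate 4, mutant replicate 1 or mutant replicate 2, and that in Pax5(DCRD1/DCRD1) to 0 without wild-type replicate 2 or either mutant replicate.

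Hemizygous and homozygous cells differed by no called segment for CRD1, CRD2 or CRD1,2. By limma, 8, 18 and 19 of 139 segments had an unadjusted p under 0.05, edgeR called 0 in each, and the background shares were 0.00722%, 0.0577% and 0.0433% higher and 0.0%, 0.00722% and 0.0289% lower. These p-values do not show that the genotypes act alike. The CRD1 pair also compares libraries of different read length and rests on the read length term. Without replicate 2 of Pax5(DCRD2/DCRD2), 7 segments differed between the CRD2 genotypes.

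Deleting CRD1 and CRD2 together lowered V segments of all 3 regions. In Pax5(DCRD1,2/-), 43 of 139 tested segments fell (background 2.69%) and 1 rose (background 1.71%). They came from every region: 10 of 20 proximal, 11 of 34 middle and 22 of 85 distal segments fell. Summed levels were 565 and 497 TPM, below every wild-type library, and only 54 and 49 segments were above 1 TPM. The sum was not lower along the whole array: the 49 segments at 1000 to 1500 kb from the J segments held 211 and 228 TPM, within the wild-type range of 158 to 362 TPM. None of the 43 overlapped with wild type, but they were picked by the call, which itself asks for a gap between the groups. All were V genes, and 38 of them have the octamer, which 79.6% of all V genes have. That share covers V genes at any level, whereas a call needed a mean above 5 TPM, so the 2 are not like for like. The median log2 fold change of the tested segments was -2.10 (-1.94 with groups at 0 set to their bound), against -0.04 over all genes.

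The falls often ended at 0 reads. Ighv7-1 was at 7.76 to 16.4 TPM in wild type and at 0 in both Pax5(DCRD1,2/-) libraries, at least 22.6-fold lower (floor of 3 reads per library; adjusted p = 0.0001867). Ighv3-8, Ighv4-1, Ighv5-16, Ighv3-1, Ighv2-9-1, Ighv1-49, Ighv1-39 and Ighv3-3 were also at 0 in both, at least 20.9-, 18.0-, 15.0-, 13.5-, 13.2-, 13.2-, 11.8- and 10.6-fold lower. Ighv8-8 fell from 10.04 to 31.8 TPM to 0 and 0.312 TPM (-6.33 ± 0.67, adjusted p = 1.239e-05), and Ighv12-3 from 10.8 to 19.1 TPM to 0.582 and 0 TPM (-5.89 ± 0.65, adjusted p = 1.847e-05). The whole Ighv3 family, at 14.2 to 86.6 TPM in wild type, was at 0.782 and 0 TPM. Ighv2 was at 15.4 and 16.4 TPM against 59.9 to 104 TPM, and Ighv1 at 156 and 199 TPM against 329 to 655 TPM.

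A few segments went the other way or held their level, so the remaining signal was concentrated. Ighv10-3 rose (3.16 ± 0.65, adjusted p = 0.002939), at 45.4 and 63.7 TPM against 2.78 to 27.6 TPM. Ighv10-1 was at 43.3 and 39.2 TPM against 5.16 to 30.9 TPM but was not called (adjusted p = 0.05312 by limma). Ighv14-2 was at 156 and 128 TPM, above the wild-type maximum of 117 TPM, and Ighv5-2 was at 31.6 and 40.3 TPM, inside the wild-type range. The 10 highest segments held 71.1% and 74.3% of the Ighv signal, against 28.1% to 39.6% in wild type. Middle segments thereby made up 50.2% and 53.7%, distal 38.6% and 34.0% and proximal 11.3% and 12.3%.

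**Figure D2:**
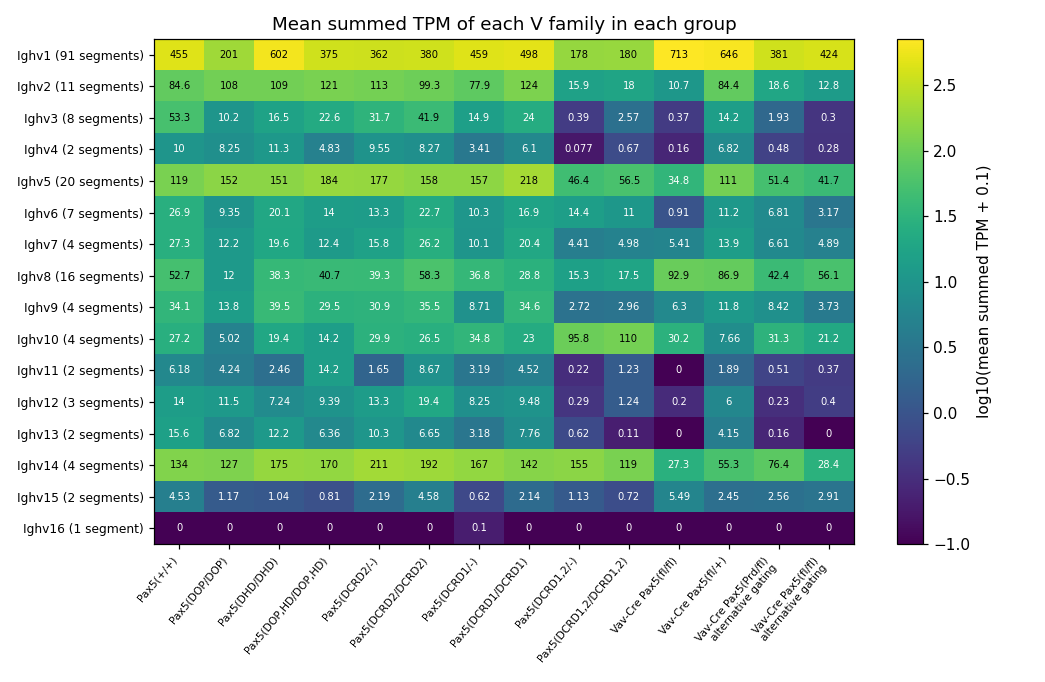
Mean summed TPM of each of the 16 V families (vertical) in each of the 14 groups (horizontal), shaded by level, with n = 5 for wild type and n = 2 elsewhere. The Ighv3 family drops from 53.3 TPM in wild type to 0.39 TPM in Pax5(DCRD1,2/-) and 0.37 TPM in Vav-Cre Pax5(fl/fl), while Ighv10 is highest in the 2 CRD1,2 groups, at 95.8 and 110 TPM.

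Pax5(DCRD1,2/DCRD1,2) cells had low sums as well. These sums were 561 and 493 TPM, and 38 of 139 segments fell (background 2.47%) and 3 rose (background 1.73%). The median log2 fold change was -1.70 (-1.44 with bounds), against 0.00 over all genes. Ighv3-6 was at 0 in both libraries, at least 33.3-fold lower than the 5.52 to 40.8 TPM of wild type (adjusted p = 0.0001377), and Ighv13-2 (-6.58 ± 1.60, adjusted p = 0.008332) and Ighv1-81 (-5.79 ± 0.69, adjusted p = 3.934e-05) followed. The 3 that rose were Ighv10-3 (58.6 and 39.4 TPM; 3.00 ± 0.65, adjusted p = 0.004237), Ighv10-1 (68.2 and 53.9 TPM; 2.57 ± 0.70, adjusted p = 0.0165) and Ighv1-5 (17.4 and 15.6 TPM; 1.72 ± 0.50, adjusted p = 0.02149). Ighv10-1 and Ighv10-3 did not overlap with wild type, whereas Ighv1-5 did, since wild-type replicate 1 was at 17.2 TPM. These 3 genes lie near each other, between 1049 and 1094 kb from Ighj1. Without replicate 2 of this group the count fell from 41 to 25 segments. Both groups share the wild-type controls, so their lists are given side by side only.

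Set against the matching CRD1 deletion, the added loss of CRD2 lowered further segments and raised none. In Pax5(DCRD1,2/-) against Pax5(DCRD1/-), 18 of 139 fell (background 0.476%) and 0 rose by limma and by edgeR (background 0.238%). Ighv7-1 was at 0 in both mutant libraries against 6.72 and 5.25 TPM, at least 11.7-fold lower, Ighv1-62-1 fell from 20.5 and 20.6 TPM to 1.18 and 0 TPM (-5.85 ± 1.28, adjusted p = 0.02152), and Ighv1-66 from 36.9 and 38.2 TPM to 1.20 and 0.840 TPM (-5.09 ± 0.56, adjusted p = 0.0002131). In the homozygous pair, 11 fell (background 0.491%) and 0 rose by limma (background 0.166%; edgeR called 1 higher). Ighv1-66 (-6.39 ± 0.76, adjusted p = 0.0007521), Ighv5-16 (-6.35 ± 1.25, adjusted p = 0.02289) and Ighv1-75 (-5.36 ± 0.59, adjusted p = 0.0006041) were the largest falls there. Ighv1-66 thus moved up with CRD1 deleted alone and down with both domains deleted, by 2.30 and -2.79 on the log2 scale against wild type in the hemizygous cells. The homozygous pair compares libraries of different read length and rests on the read length term. Without replicate 1 or 2 of Pax5(DCRD1/-) the first count was 8 or 9; without replicate 1 or 2 of Pax5(DCRD1/DCRD1), wild-type replicate 3 or replicate 2 of Pax5(DCRD1,2/DCRD1,2) the second was 4, 5, 5 or 5.

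Pax5-deficient progenitors held nearly as many V transcripts as wild type, but most of them came from the distal families. Vav-Cre Pax5(fl/fl) samples summed to 978 and 877 TPM, the former inside and the latter just below the wild-type range of 904 to 1482 TPM. Distal segments held 86.3% and 87.5% of it, proximal 4.86% and 4.95% and middle 8.89% and 7.52%. Of 139 tested segments 39 fell (background 3.59%) and 9 rose (background 3.89%). The falls took 12 of 20 proximal and 15 of 34 middle segments but 12 of 85 distal ones, and all 9 that rose are distal. Median log2 fold changes were -4.22 in the proximal, -4.01 in the middle and -0.16 in the distal region, and -1.61 over all tested segments (-0.97 with groups at 0 set to their bound), against 0.00 over all genes.

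Among the falls, Ighv3-6, Ighv13-2, Ighv12-3, Ighv3-8, Ighv1-19, Ighv5-9-1, Ighv3-1, Ighv2-9-1, Ighv3-3 and Ighv5-16 were at 0 in both libraries, at least 13.6-, 9.42-, 8.33-, 6.64-, 5.99-, 4.51-, 4.29-, 4.20-, 3.35- and 4.77-fold lower. The bounds are smaller than in the CRD1,2 deletion because replicate 2, with 10018678 reads, was the shallowest library. Ighv2-9 fell from 14.2 to 21.4 TPM to 0.359 and 0 TPM (-6.44 ± 1.03, adjusted p = 0.000233), and Ighv2-2 from 17.9 to 31.6 TPM to 8.85 and 2.23 TPM (-2.66 ± 0.43, adjusted p = 0.0002417). Ighv5-2, the nearest V gene, was at 21.3 and 25.9 TPM, overlapped with wild-type replicate 2 and changed by less than 3-fold (-0.74 ± 0.25, adjusted p = 0.03515). Ighv14-2 fell (-3.71 ± 0.98, adjusted p = 0.008671), but its libraries were far apart, at 38.8 and 0.744 TPM.

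**Figure D3:**
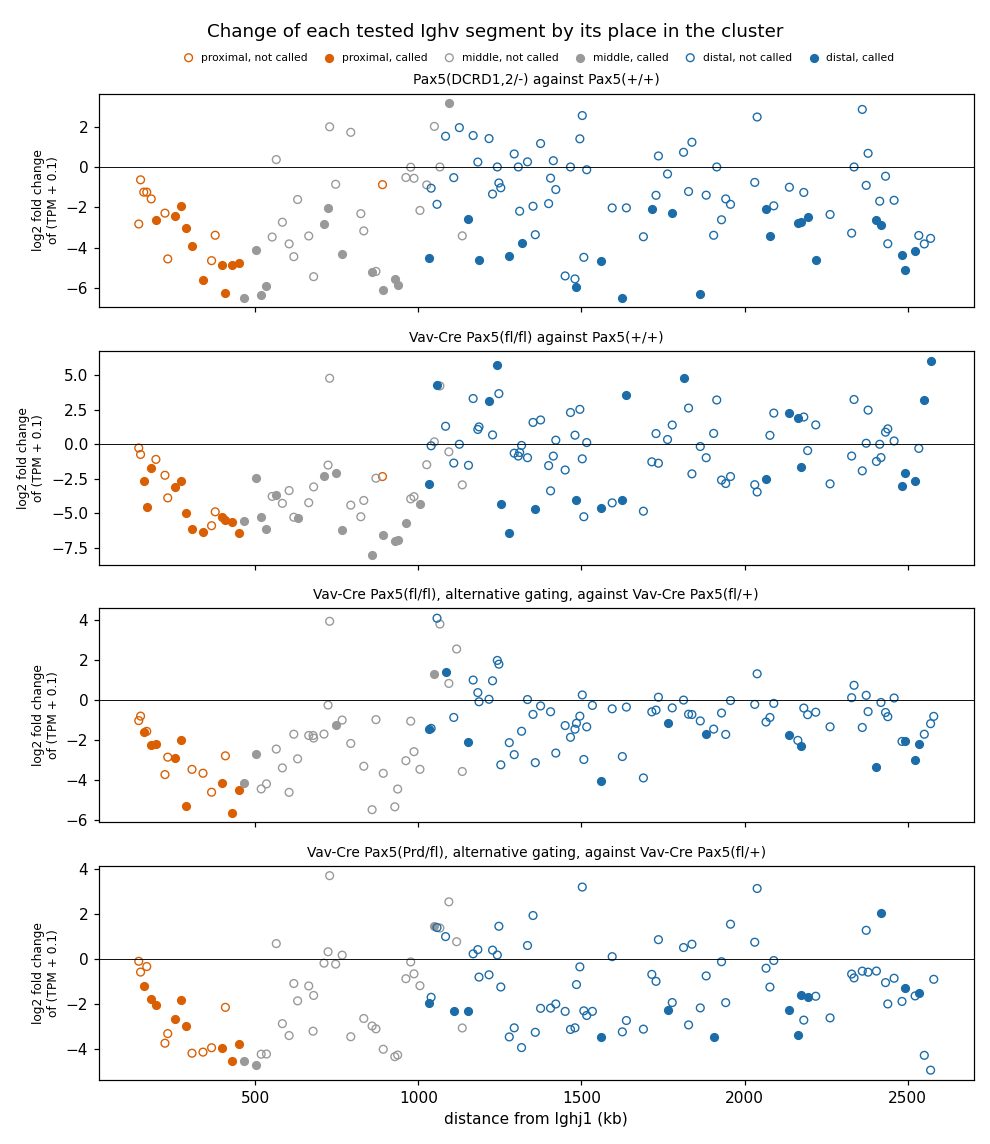
Log2 fold change of each tested Ighv segment (vertical) against its distance from Ighj1 in kb (horizontal) in 4 comparisons, coloured by region, filled where called. In Vav-Cre Pax5(fl/fl) against wild type the median is -4.22 for proximal and -0.16 for distal segments, with all 9 filled points above 0 in the distal region; in Pax5(DCRD1,2/-) the filled points below 0 run along the whole array.

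The rise was carried above all by the last gene of the array. Ighv1-85 was at 338 and 240 TPM in the progenitors against 6.13, 3.82, 1.15, 7.40 and 3.13 TPM in wild type (6.05 ± 0.87, adjusted p = 9.284e-05). It held 34.6% and 27.3% of all Ighv signal in these libraries. Its neighbour Ighv1-84 was at 2.96 and 7.44 TPM (3.18 ± 1.16, adjusted p = 0.04712), which overlaps with wild-type replicate 3 at 3.90 TPM, while Ighv1-82 fell, to 2.69 and 2.71 TPM from 11.2 to 23.6 TPM (-2.68 ± 0.47, adjusted p = 0.000479). The other segments that rose are spread over the distal region. Ighv1-4 was at 41.4 and 43.9 TPM against 0.80 to 6.88 TPM (4.31 ± 1.35, adjusted p = 0.02264), Ighv1-66 at 26.02 and 39.3 TPM against 5.28 to 11.8 TPM (1.89 ± 0.51, adjusted p = 0.01066), and Ighv1-56 at 12.9 and 21.6 TPM against 0.273 to 0.918 TPM (4.83 ± 0.78, adjusted p = 0.0002408). None of these 3 overlapped with wild type. Ighv8-11 (2.28 ± 0.60, adjusted p = 0.008419) and Ighv8-5 (3.55 ± 1.17, adjusted p = 0.02901) also rose. The remaining 2 are pseudogenes: Ighv1-17-1 was at 6.29 and 4.46 TPM and at 0 in all 5 wild-type libraries, at least 7.27-fold higher (adjusted p = 9.559e-06), and Ighv1-14 was at 9.04 and 6.497 TPM against 0.238 to 3.21 TPM (3.15 ± 1.09, adjusted p = 0.03725). Pseudogenes held 7.41% and 8.84% of the Ighv signal in the progenitors, the former inside the wild-type range of 2.59% to 7.53%.

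**Figure D4:**
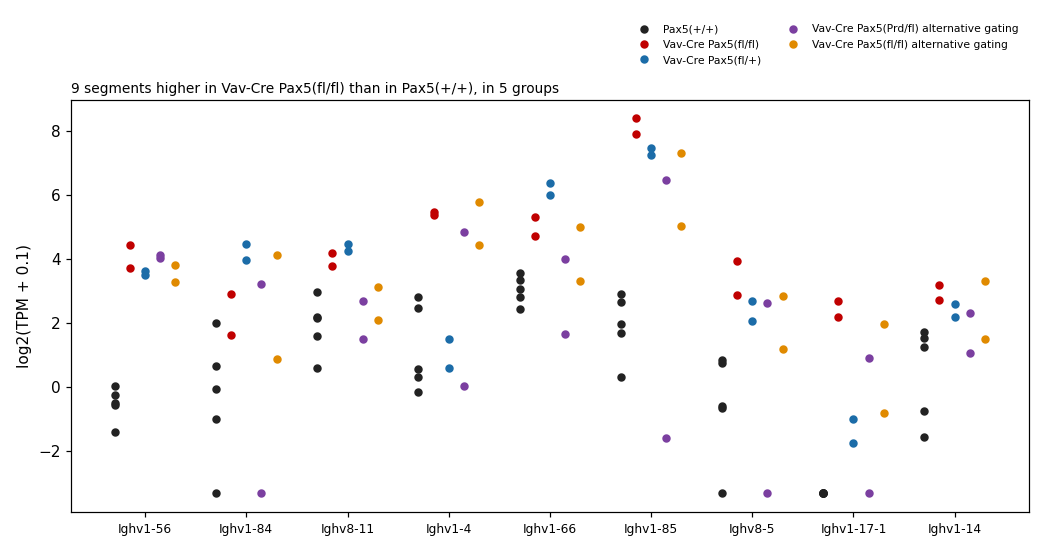
Level of the 9 segments called higher in Vav-Cre Pax5(fl/fl) progenitors, as log2(TPM + 0.1), with 1 point per sample in 5 groups. Ighv1-85 reached 338 and 240 TPM in these progenitors, 152 and 178 TPM in Vav-Cre Pax5(fl/+) pro-B cells and at most 7.40 TPM in wild type, whereas Ighv1-4 stayed at 2.72 and 1.395 TPM in Vav-Cre Pax5(fl/+).

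Pax5-deficient progenitors and Pax5(DCRD1,2/-) cells therefore had different V profiles, and the direct comparison called 7 of 139 segments higher (background 0.707%) and 2 lower (background 0.462%) in the progenitors. All 7 are distal. Ighv1-85 was at 338 and 240 TPM against 0.585 and 0 TPM (9.60 ± 1.3, adjusted p = 0.001152), Ighv8-8 at 13.1 and 13.9 TPM against 0 and 0.312 TPM (6.17 ± 0.90, adjusted p = 0.002067), and Ighv1-84 at least 9.79-fold higher, being at 0 in both Pax5(DCRD1,2/-) libraries (adjusted p = 0.03838). The 2 lower ones are the middle genes Ighv10-3, at 7.23 and 9.01 TPM against 45.4 and 63.7 TPM (-3.71 ± 0.88, adjusted p = 0.03362), and Ighv6-3, at 0.729 and 0 TPM against 9.42 and 8.94 TPM (-5.19 ± 0.94, adjusted p = 0.008555). The comparison crosses the read lengths and rests on the read length term.

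**Figure D5:**
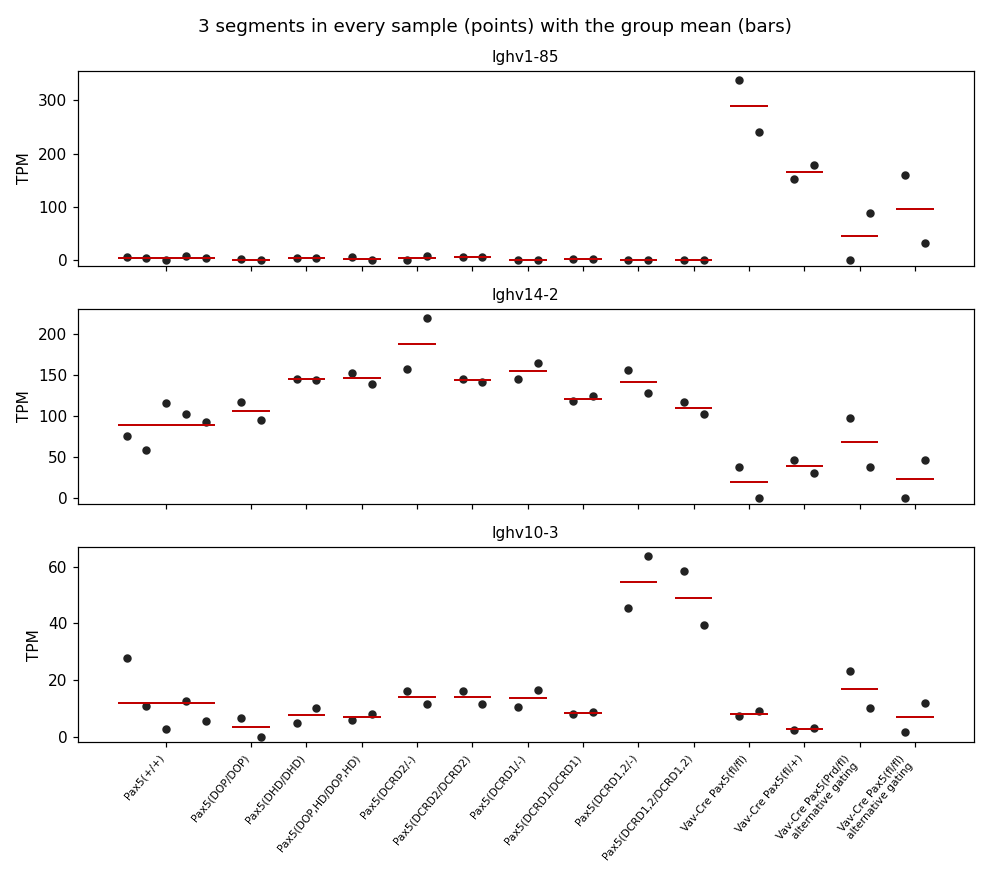
TPM of Ighv1-85, Ighv14-2 and Ighv10-3 in each sample (points) with the group mean (red lines) over the 14 groups. Ighv1-85 is high in Vav-Cre Pax5(fl/fl) and Vav-Cre Pax5(fl/+) and at most 8.45 TPM in wild type and the domain mutants, Ighv14-2 lies between 59.0 and 220 TPM in wild type and all domain mutants, and Ighv10-3 peaks in the CRD1,2 deletions at 39.4 to 63.7 TPM.

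In the paired-domain experiment, the controls themselves differed from Pax5(+/+) at the distal end. Vav-Cre Pax5(fl/+) pro-B cells, the controls, held 1048 and 1080 TPM, of which 66.2% and 71.5% was distal. That is above every wild-type library, and Ighv1-85 was already their highest segment, at 152 and 178 TPM. In a contrast added after the data were seen, 5 of 143 segments were higher (background 0.383%) and 0 lower (background 0.256%) in these controls than in Pax5(+/+) by limma: Ighv1-66 (3.26 ± 0.70, adjusted p = 0.004652), Ighv1-56 (3.81 ± 1.00, adjusted p = 0.01488), the pseudogenes Ighv1-83 (2.43 ± 0.76, adjusted p = 0.03513) and Ighv1-73 (4.61 ± 1.5, adjusted p = 0.04287), and Ighv1-85 (5.75 ± 1.92, adjusted p = 0.04828). All 5 are distal, and they are named because they were called there, after their values were seen. Experiment and genotype cannot be told apart in this contrast.

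Against these controls, Vav-Cre Pax5(fl/fl) progenitors of the same experiment had 23 of 131 tested segments lower (background 4.82%) and 2 higher (background 5.47%). The falls took 9 of 18 proximal, 3 of 33 middle and 11 of 80 distal segments. Ighv5-17 fell from 9.10 and 6.39 TPM to 0 and 0.136 TPM (-5.65 ± 0.54, adjusted p = 0.0004843), Ighv2-6 from 9.36 and 17.0 TPM to 0.307 and 0.157 TPM (-5.30 ± 0.43, adjusted p = 0.0002714) and Ighv2-9 from 18.7 and 18.4 TPM to 0.297 and 1.52 TPM (-4.54 ± 0.69, adjusted p = 0.00297). The groups did not overlap for any of the 3. The 2 that rose were Ighv1-5, at 20.96 and 12.5 TPM against 6.22 and 6.02 TPM (1.39 ± 0.24, adjusted p = 0.004661), and Ighv10-1, at 10.2 and 14.4 TPM against 6.08 and 4.09 TPM (1.26 ± 0.32, adjusted p = 0.02203). Summed levels were 735 and 465 TPM, below both controls, with distal shares of 89.2% and 65.4%. The 2 libraries were thus unlike: Ighv1-85 was at 159 and 32.3 TPM and Ighv14-2 at 0.919 and 47.2 TPM. Of 25 segments with at least 50 reads, 6 were more than 4-fold apart between these libraries. The count of 25 called segments fell to 14 or 13 without replicate 1 or 2 of the controls.

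The comparisons of Pax5-deficient progenitors with wild type and with Vav-Cre Pax5(fl/+) share no samples. They had 16 segments called lower in common, 41.0% of the 39 in the former and 69.6% of the 23 in the latter, among them Ighv2-2, Ighv2-9, Ighv5-17, Ighv7-1 and Ighv1-82. Of all genes tested, 3.59% and 4.82% were called lower in the 2 comparisons. How many of those were shared was not computed, so the shared count has no background beside it. None was called higher in both, and Ighv8-11 rose in the former and fell in the latter (-1.76 ± 0.46, adjusted p = 0.02424). Against Vav-Cre Pax5(fl/+), the log2 changes of the 9 segments called higher in the former ran from -2.04 (Ighv1-66) to 4.08 (Ighv1-4). Ighv1-4 was at 55.3 and 21.6 TPM in the Pax5-deficient progenitors of that experiment against 2.72 and 1.395 TPM, without overlap. It was not called there (adjusted p = 0.06041 by limma). In 1 fit over all 31 samples, added after the data were seen, the change was compared between the experiments by limma. It differed for Ighv1-66 (difference of log2 fold changes 3.92 ± 0.94, adjusted p = 0.04462), the only segment past 0.05. Of all 14089 genes tested, 159 were past 0.05, so a single segment does not set the Ighv rows apart. For Ighv1-85 the difference was 7.25 ± 2.60 (adjusted p = 0.2975).

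With the paired domain as the only Pax5 protein, 9 of 18 proximal V segments were lower as well. Both progenitor groups of this experiment carry another gate label than their Vav-Cre Pax5(fl/+) controls. Genotype and gate therefore cannot be told apart in either comparison with these controls. Vav-Cre Pax5(Prd/fl) progenitors held 634 and 625 TPM, and 23 of 131 segments fell (background 4.74%) and 2 rose (background 6.34%) against Vav-Cre Pax5(fl/+). The falls took 9 of 18 proximal, 2 of 33 middle and 12 of 80 distal segments. Ighv14-1 fell from 5.45 and 5.18 TPM to 0 and 0.325 TPM (-4.71 ± 0.86, adjusted p = 0.006205), Ighv5-17 to 0.199 and 0.282 TPM (-4.52 ± 0.54, adjusted p = 0.001153) and Ighv7-1 from 6.39 and 6.55 TPM to 0.221 and 0.157 TPM (-4.51 ± 0.48, adjusted p = 0.0007193). Ighv1-76, at 38.9 and 15.5 TPM against 6.86 and 5.13 TPM (2.03 ± 0.41, adjusted p = 0.008723), and Ighv10-1, at 18.1 and 10.5 TPM (1.45 ± 0.32, adjusted p = 0.01322), rose. The replicates disagreed at the far end: Ighv1-85 was at 0.229 and 89.1 TPM, Ighv1-4 at 0.916 and 28.8 TPM and Ighv1-84 at 0 and 9.27 TPM. Of 23 segments with at least 50 reads, 7 were more than 4-fold apart between the 2 libraries, against 0 of 31 in the controls. Between the paired-domain and the Pax5-deficient progenitors 0 of 131 segments were called by limma (background 0.41% higher and 0.301% lower), with 18 at an unadjusted p under 0.05 and 1 called by edgeR. Without replicate 2 of Vav-Cre Pax5(Prd/fl), 8 were called, and without control replicate 1 or 2 the count of 25 against the controls was 15 or 10.

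Other genes of heavy-chain recombination were read from fixed lists. Of all genes, 1.71% to 3.89% were called per direction in Pax5(DCRD1,2/-) and Vav-Cre Pax5(fl/fl) against wild type. Against Vav-Cre Pax5(fl/+), at a 2-fold minimum, it was 4.74% to 6.34%, so 1 call in 16 genes there lies near the background. Of the V(D)J recombination list, 16 genes tested, 1 fell in Pax5(DCRD1,2/-) and 2 in Vav-Cre Pax5(fl/fl) against wild type, and none rose. Polm, a DNA polymerase of end joining, fell in both (-5.83 ± 0.52, adjusted p = 2.646e-06, and -4.55 ± 0.48, adjusted p = 4.684e-06), and Rag2, a subunit of the recombinase, fell in the latter (-1.73 ± 0.34, adjusted p = 0.001142). Polm also fell in Pax5(DCRD1/-) (-5.37 ± 0.52, adjusted p = 1.254e-05), Pax5(DCRD1/DCRD1) (-4.04 ± 0.48, adjusted p = 0.000119), Pax5(DCRD1,2/DCRD1,2) (-5.77 ± 0.52, adjusted p = 3.618e-06) and Pax5(DOP,HD/DOP,HD) (-2.16 ± 0.32, adjusted p = 0.02408) against wild type. Against Vav-Cre Pax5(fl/+), 4 fell (Polm, Rag2, Lig4 and Hmgb2) and 1, the end-joining factor Xrcc5, rose in the Pax5-deficient progenitors, and 3 fell (Polm, Lig4 and Hmgb2) in the paired-domain progenitors. In the list of cohesin and locus folding, 15 genes, Wapl was the gene that rose in each of these 4 comparisons. Wapl releases cohesin from DNA, is repressed by Pax5, and its level sets how far the V array is drawn in. It was at 2.84 to 12.4 TPM in wild type, 11.2 and 19.4 TPM in Pax5(DCRD1,2/-) (1.69 ± 0.43, adjusted p = 0.01037) and 30.9 and 55.7 TPM in Vav-Cre Pax5(fl/fl) (2.27 ± 0.39, adjusted p = 0.0003988). It was at 4.27 and 3.47 TPM in Vav-Cre Pax5(fl/+), 23.7 and 30.7 TPM in the Pax5-deficient progenitors of that experiment (2.78 ± 0.20, adjusted p = 0.0001509) and 22.7 and 29.1 TPM with the paired domain alone (2.71 ± 0.20, adjusted p = 0.0001526). Nipbl, the loader of cohesin, fell in the Pax5-deficient and Rad21, a cohesin subunit, in the paired-domain progenitors.

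Of 14 V promoter and early B factors, E2f2 and Tcf3 fell in all 4 comparisons, Tcf3 (E2A) from 1286 to 226 TPM on average in Pax5(DCRD1,2/-) (-2.20 ± 0.16, adjusted p = 4.286e-07) and to 333 TPM in Vav-Cre Pax5(fl/fl) (-2.12 ± 0.15, adjusted p = 8.513e-08). The Oct factor genes Pou2f1 and Pou2f2 were not called in any of the 4, while their coactivator Pou2af1 fell in the Pax5-deficient progenitors against Vav-Cre Pax5(fl/+) (-1.05 ± 0.15, adjusted p = 0.002282), as did Ebf1, Ets1 and Foxo1. Ets1 and Foxo1 also fell and Il7r rose with the paired domain alone. None of the 8 tested J, D and constant-region features of the Igh locus (7 in the paired-domain experiment) was called by limma in these 4 comparisons. Elsewhere the single call was Ighj1 in Pax5(DCRD1/-), at 32.1 and 16.6 TPM against 85.0 to 220 TPM in wild type (-2.12 ± 0.40, adjusted p = 0.002892). Ighj4 was at 89.5 to 226 TPM in wild type, 100 and 90.0 TPM in Pax5(DCRD1,2/-) and 106 and 67.7 TPM in Vav-Cre Pax5(fl/fl).

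Markers of other cells moved with the Pax5-deficient groups, and their part in the V values was not tested. The background shares given for the gene lists apply to these calls too. Sums in Vav-Cre Pax5(fl/fl) were higher than in wild type for the plasma cell list (537 and 720 against 225 to 351 TPM), the plasmacytoid dendritic cell list (926 and 1514 against 429 to 512 TPM) and the T cell list (543 and 562 against 160 to 209 TPM). Of these lists, 1 of 6, 3 of 6 and 1 of 5 tested markers were called higher. Called lower were 1 of 6, 0 of 6 and 0 of 5. Jchain, the joining chain of secreted antibody, rose most of all (8.63 ± 0.98, adjusted p = 9.615e-06 by limma). It alone held 355 and 490 TPM of the plasma cell sums, against 0.230 to 3.81 TPM in wild type. Irf4 of the same list fell (-2.19 ± 0.16, adjusted p = 1.071e-07 by limma), so that list did not rise as a whole. Granulocyte and macrophage markers ran from 365 to 2610 TPM in the progenitors and 433 to 4967 TPM in wild type, with 0 of 7 called by limma. In the paired-domain experiment that list summed to 101 and 133 TPM in Vav-Cre Pax5(fl/+), 208 and 396 TPM in the Pax5-deficient and 228 and 241 TPM in the paired-domain progenitors. Of its 6 tested markers there, 3 (Mpo, S100a8 and S100a9) were called higher in the former and 2 (Mpo and S100a9) in the latter. The T cell markers Lck and Tcf7, 2 of 4 tested, were higher in each, as were Siglech, 1 of 5 plasmacytoid dendritic cell markers, and Jchain, 1 of 5 plasma cell markers, of which Irf4 and Sdc1 were lower in the Pax5-deficient progenitors. No marker of these lists was at 0 in both progenitor libraries apart from the erythroid Hba-a1, which was at 0 in every group.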

How the data were processed

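Poly(A)-selected mRNA of sorted bone marrow cells was sequenced. The authors trimmed reads to 50 bases, aligned them with STAR 2.4.2a to GRCm38 (mm10), counted them per gene and deposited gene tables with TPM values. The labels' processing notes also name Bowtie, TopHat and SAMtools, without roles. Whether counting used strand is not given in the sources used here. Deposited columns of the authors' own comparisons were not used. Of the TPM tables, 8 give no gene names and were read in the row order of the named ones: in 100.0% of 14405 rows the ratio of a deposited count to TPM agreed within 1%, against 1.399% when shifted by 1 row. There were 0 per-sample columns of unknown samples.

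Ighv rows were found by name (181 of 185 annotated Ighv genes in GENCODE M21 had a row). The members and gene lists were chosen with earlier results of these data known. Tests used limma 3.58.1 (R 4.3.3) on log2(TPM + 0.1) with an intensity trend, over every gene that passed 1 TPM in some library of the model. The models held 8 samples for the central deletions, 19 for the C-terminal deletions and Vav-Cre Pax5(fl/fl) with read length (50 or 100 bases) as a term, and 6 for the paired-domain experiment. With that term, the groups read at 50 bases are in effect compared with wild-type replicates 1, 2 and 5 and the others with replicates 3 and 4, so a fitted change need not equal the ratio of the printed means. Whole reads were recovered from the low TPM values (100.0% whole within 0.02 of a read) and tested with edgeR 4.0.16 as an alternative. The scripts were tested on simulated data.

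The segments named in the text are the 3 V genes nearest to and the 3 farthest from the J segments, the highest of each family in wild type, and the called segments of largest change, up to 10 per direction for Vav-Cre Pax5(fl/fl) and Pax5(DCRD1,2/-) against wild type and up to 3 elsewhere. Others were named after their values were seen. Of the fixed gene lists, called genes are named. Same-numbered replicates did not deviate together (C-terminal set, 3 of 28 group pairs with a correlation over 0.1; paired-domain set, 0 of 3), so the fit has no replicate block. No replicates were duplicates (chi-square per degree of freedom 5.10 to 58.3). The tables of the other lymphoid cells, and the ChIP-seq and ATAC-seq files, were not used here. A marker gene, and a marker sum that includes it, are not reported here.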

Additional observations from a re-analysis of the deposited data

Results flagged for a closer look

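In 5 wild-type libraries, 1 library stood apart from the other 4 for 6 of the 56 segments and sums tested (a gap of more than 0.71 of the whole range, which chance gives in about 1 of 20 groups). Ighv1-5 (17.2 TPM), Ighv1-74 (36.3 TPM), Ighv5-4 (16.6 TPM) and Ighv7-3 (27.0 TPM) were high in replicate 1, the library with the largest Ighv sum. Ighv1-23 (39.9 TPM) was high in replicate 3 and Ighv1-75 (5.65 TPM) low in replicate 2.

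The change of Ighv1-66 on loss of Pax5 differed between the 2 experiments by 3.92 ± 0.94 on the log2 scale (adjusted p = 0.04462 by limma): it rose from 8.46 to 32.6 TPM in Vav-Cre Pax5(fl/fl) against wild type and was at 20.9 against 73.6 TPM in Vav-Cre Pax5(fl/fl) against Vav-Cre Pax5(fl/+). Differences between mutant groups were called for 18 segments (CRD1,2 against CRD1, hemizygous), 11 segments (the same, homozygous) and 9 segments (Vav-Cre Pax5(fl/fl) against Pax5(DCRD1,2/-)).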

How the results depend on the processing

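Rescaling the samples on genes outside the antigen receptor segments changed no count, and none of the 67 named results reversed under any alternative. With edgeR, 62 of 67 kept their call, with no filter on low values 60, with a pseudocount of 1 TPM 64, and with a replicate block, which the labels' numbers do not justify, 56 of 64. The octapeptide count of 3 became 1 with no filter and 1 with edgeR. Pax5(DCRD1/-) went from 10 to 6 with no filter and to 17 with the replicate block. It was also 17 on replicates 1 and 2 alone with neither the block nor the read length term. Pax5(DCRD1/DCRD1) went from 1 to 2 with a pseudocount of 1 TPM, with edgeR, within its own read length and with the block (2 without it on the same samples). Vav-Cre Pax5(fl/fl) against Pax5(DCRD1,2/-) went from 9 to 16 with a pseudocount of 1 TPM and 24 with the block (24 without it on the same samples). Paired domain against Pax5-deficient went from 0 to 1 with edgeR and 1 with the block. With the block, and likewise without it on replicates 1 and 2, Pax5(DCRD2/-) went from 0 to 2, Pax5(DCRD2/DCRD2) from 0 to 1, CRD1,2 against CRD1 in homozygous cells from 11 to 36 (11 with a 2-fold minimum, added after the data were seen) and homozygous against hemizygous CRD1 from 0 to 2. No paired analysis was possible for the central deletions because they share no replicate numbers with their controls.

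Leaving out 1 library at a time gave 0 segments for the octapeptide, 0 to 1 for the homeodomain, 0 for both, 0 to 1 for Pax5(DCRD2/-), 3 to 12 for Pax5(DCRD1/-), 37 to 47 for Pax5(DCRD1,2/-), 0 to 6 for Pax5(DCRD2/DCRD2), 0 to 2 for Pax5(DCRD1/DCRD1), 25 to 44 for Pax5(DCRD1,2/DCRD1,2) and 37 to 50 for Vav-Cre Pax5(fl/fl), each against wild type. Between mutants it gave 8 to 19 and 4 to 16 (CRD1,2 against CRD1, hemizygous and homozygous), 0, 0 to 7 and 0 (homozygous against hemizygous CRD1, CRD2 and CRD1,2) and 6 to 12 (Vav-Cre Pax5(fl/fl) against Pax5(DCRD1,2/-)). In the paired-domain experiment it gave 13 to 32, 10 to 32 and 0 to 8. The homeodomain count of 1 came without octapeptide replicate 1 or 2, the Pax5(DCRD1/DCRD1) count of 2 without wild-type replicate 3, 4 or 5 or either Pax5(DCRD2/DCRD2) library, and the Pax5(DCRD2/-) count of 1 without either Pax5(DCRD2/DCRD2) library or its own replicate 1. Paired domain against Pax5-deficient was 1 without Vav-Cre Pax5(Prd/fl) replicate 1.

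The distal shares of wild type, Vav-Cre Pax5(fl/fl) and Pax5(DCRD1,2/-), 47.4%, 86.9% and 36.3%, became 52.1%, 80.9% and 49.6% without the highest segment, 39.6%, 71.2% and 24.8% when cut by distance, and 45.8%, 86.9% and 33.5% over genes only. Without 1 library they ran from 46.9% to 48.5%, 86.3% to 87.5% and 34.0% to 38.6%. Without Ighv14-2 the Pax5(DCRD1,2/-) shares were 53.3% and 45.8%, the former inside and the latter just below the wild-type range of 46.3% to 57.0%. The causes of these changes were not tested. With 1187 to 6799 Ighv reads a library, depth limits segments near 1 TPM, and a segment at 0 was not detectable at that depth.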

Other observations

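In bins of 500 kb from Ighj1, the mean summed level in wild type and Pax5-deficient progenitors was 215 and 46.0 TPM from 0 to 500 kb, 302 and 44.5 TPM from 500 to 1000 kb, 233 and 227 TPM from 1000 to 1500 kb, 122 and 129 TPM from 1500 to 2000 kb, 166 and 183 TPM from 2000 to 2500 kb and 27.1 and 299 TPM over the 5 segments beyond. The same bins held 62.4, 177, 220, 36.9, 33.4 and 1.56 TPM in Pax5(DCRD1,2/-), so that in both mutants the bin from 1000 to 1500 kb stayed closest to wild type. In Pax5(DOP/DOP) they held 265, 196, 97.0, 46.5, 66.2 and 12.3 TPM, and the nearest bin was the one not below wild type. These sums were not tested.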
